A study of Mus musculus with 23 samples.

Results

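Ubiquitin-specific proteases, named by the symbol Usp and a number, form the most numerous family of deubiquitinases, the enzymes that take ubiquitin off other proteins. The genes described here were protein-coding genes of the mouse genome (GRCm39) whose symbol is Usp, a number and in some a final letter. Longer symbols were not considered. A gene also needed at least 10 reads in at least 10 of 23 RNA-seq libraries from cultured hippocampal neurons. Of 50 genes with such a symbol, 45 met this rule, among 56941 genes listed in the count tables. *Usp18*, *Usp26*, *Usp44*, *Usp50* and *Usp9y* did not.

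A Usp enzyme holds a catalytic cysteine in a conserved stretch near the start of its catalytic domain, called the Cys box, and cuts the bond between ubiquitin and its target. Family members edit ubiquitin chains, remove ubiquitin from histones, and help decide whether receptors are recycled or degraded, and in neurons some act on receptors at the synapse. Nedd8 is a small protein related to ubiquitin whose attachment to cullins activates the cullin-RING ubiquitin ligases, so that its loss acts on the ubiquitin system from the side opposite to these enzymes.

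The study compared neurons with and without *Nedd8*. All libraries came from primary hippocampal cultures of newborn (P0) mice homozygous for Nedd8cKO, a *Nedd8* allele with LoxP sites around its exons 2 and 3. On day 1 in vitro the cultures received a lentivirus, with CRE recombinase and RFP in the 12 CRE libraries and with RFP alone in the 11 RFP libraries. RNA was taken on day 12 per the labels and on day 13 per the study's methods. The virus used the Synapsin1 promoter, which is active in neurons, while RNA came from the whole dish with whatever glia it held. In such bulk RNA, fewer cells of a type and less RNA per cell cannot be told apart. A library is named here by its virus, the number read as its culture and its number within that culture (CRE1-3). Nothing in the labels says that the libraries of a culture came from separate animals or dishes. The number of animals or biological replicates that the study states equals that of the cultures, so the libraries of a culture are not shown to be independent, and the p-values then measure only the spread between these libraries, which may be technical.

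The comparison used the 21 libraries of the study's own count table, 11 CRE and 10 RFP, with totals of 7430401 to 17112815 reads assigned to genes. That table leaves out CRE3-3, with 1546796 reads, and RFP3-2, in which 24.2% of reads fell on the ribosomal RNA gene *Rn18s-rs5* (0.856 to 5.86% in the other 22). CRE1-3 and RFP2-4 also stood apart and are in the comparison. Mitochondrial genes took 0.261% of reads in CRE1-3, 1.83% in CRE3-3 and 3.43% in RFP2-4, against 7.0 to 11.1% in the other 20 libraries. In these 3 libraries GC-rich genes had higher levels than elsewhere (Spearman's rho across genes 0.74, 0.55 and 0.51), and rho lay between -0.13 and 0.28 in the others. The results that rest on these libraries are given with and without them, the latter over 19 libraries. *Nedd8* itself stood at 5.92 to 18.0 CPM (reads scaled to library size with TMM factors and expressed per 1e6) in the 11 CRE libraries and at 44.1 to 76.0 in the 10 RFP libraries, and at 2.05 in CRE3-3 and 52.8 in RFP3-2.

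The Cys box shows what the members have in common and how far close relatives differ. A stretch of 16 codons around the codon of the catalytic cysteine was found in the coding sequence (GENCODE M39) of 42 of the 45 members, with TGT as the cysteine codon in 20 and TGC in 22. None was found by this search in *Usp39*, *Usp53* and *Usp54*. The stretches below are those of the 7 genes whose level differed between CRE and RFP libraries. Added are those of the close relatives *Usp27x*, *Usp51*, *Usp12* and *Usp5* to which the 7 are compared. Each is read 5′ to 3′ on the coding strand with the cysteine codon in capitals.
Usp22: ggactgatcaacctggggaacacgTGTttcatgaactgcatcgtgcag
Usp27x: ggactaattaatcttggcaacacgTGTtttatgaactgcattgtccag
Usp51: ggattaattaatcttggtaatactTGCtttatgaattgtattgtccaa
Usp46: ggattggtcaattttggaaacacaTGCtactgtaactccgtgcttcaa
Usp12: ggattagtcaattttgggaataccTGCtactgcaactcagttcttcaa
Usp13: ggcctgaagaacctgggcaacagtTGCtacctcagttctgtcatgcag
Usp5: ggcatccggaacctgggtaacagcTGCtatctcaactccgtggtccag
Usp20: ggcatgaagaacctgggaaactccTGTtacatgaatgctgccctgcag
Usp33: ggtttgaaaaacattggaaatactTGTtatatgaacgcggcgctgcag
Usp36: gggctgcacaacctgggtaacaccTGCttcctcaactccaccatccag
Usp24: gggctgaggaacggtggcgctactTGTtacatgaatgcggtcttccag

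The stretch of *Usp22* lies in exon 5 of 13 on the minus strand at chr11:61053767-61053814, and shares 40 of its 48 bases with that of *Usp27x* and 33 with that of *Usp51*. Those of *Usp46* (chr5:74193143-74197705, minus strand) and *Usp12* (chr5:146700189-146705758, minus strand) are each split by an intron, with the cysteine codon in exon 3, and share 41 of 48 bases. *Usp20* (exon 8, chr2:30894952-30894999, plus strand) and *Usp33* (exon 7, chr3:152069623-152069670, plus strand) share 36. *Usp13* (exon 8, chr3:32935578-32935625, plus strand) and *Usp5* (exon 8, chr6:124799521-124799568, minus strand) share 35. *Usp36* has its stretch in exon 4 at chr11:118175746-118175793 on the minus strand, and *Usp24* in exon 44 of 69 at chr4:106263630-106263677 on the plus strand. The close relatives are thus distinct at the base level. Of all 50-base stretches in the transcripts of each of the 7 genes, at most 0.485% also occurred in a transcript of another gene.

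CRE libraries held a lower level of 5 Usp genes, *Usp22*, *Usp46*, *Usp20*, *Usp24* and *Usp33*, and a higher level of 2, *Usp13* and *Usp36*. These 7 of 45 members (15.6%) had an adjusted p under 0.05 by edgeR's quasi-likelihood test after Benjamini-Hochberg adjustment over all genes tested, against 30.2% of the 14488 genes tested. The lower genes were 11.1% of the members against 13.8% of all genes, and the higher ones 4.44% against 16.4%. No test compares the family with all genes. Without culture 2 the lower members were 3 of 45, against 5.45% of all genes. The changes were also small. Log2 fold changes of the members ran from -0.69 to 0.59 with a median size of 0.23 (0.32 over all genes), and 0 members went past 1 in either direction, against 12.7% of all genes. The median of the members was -0.11 against 0.02 for all genes, with 31 of 45 members (68.9%) below 0 against 48.2% of all genes. All 45 members passed the filter on low counts.

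**Figure D1:**
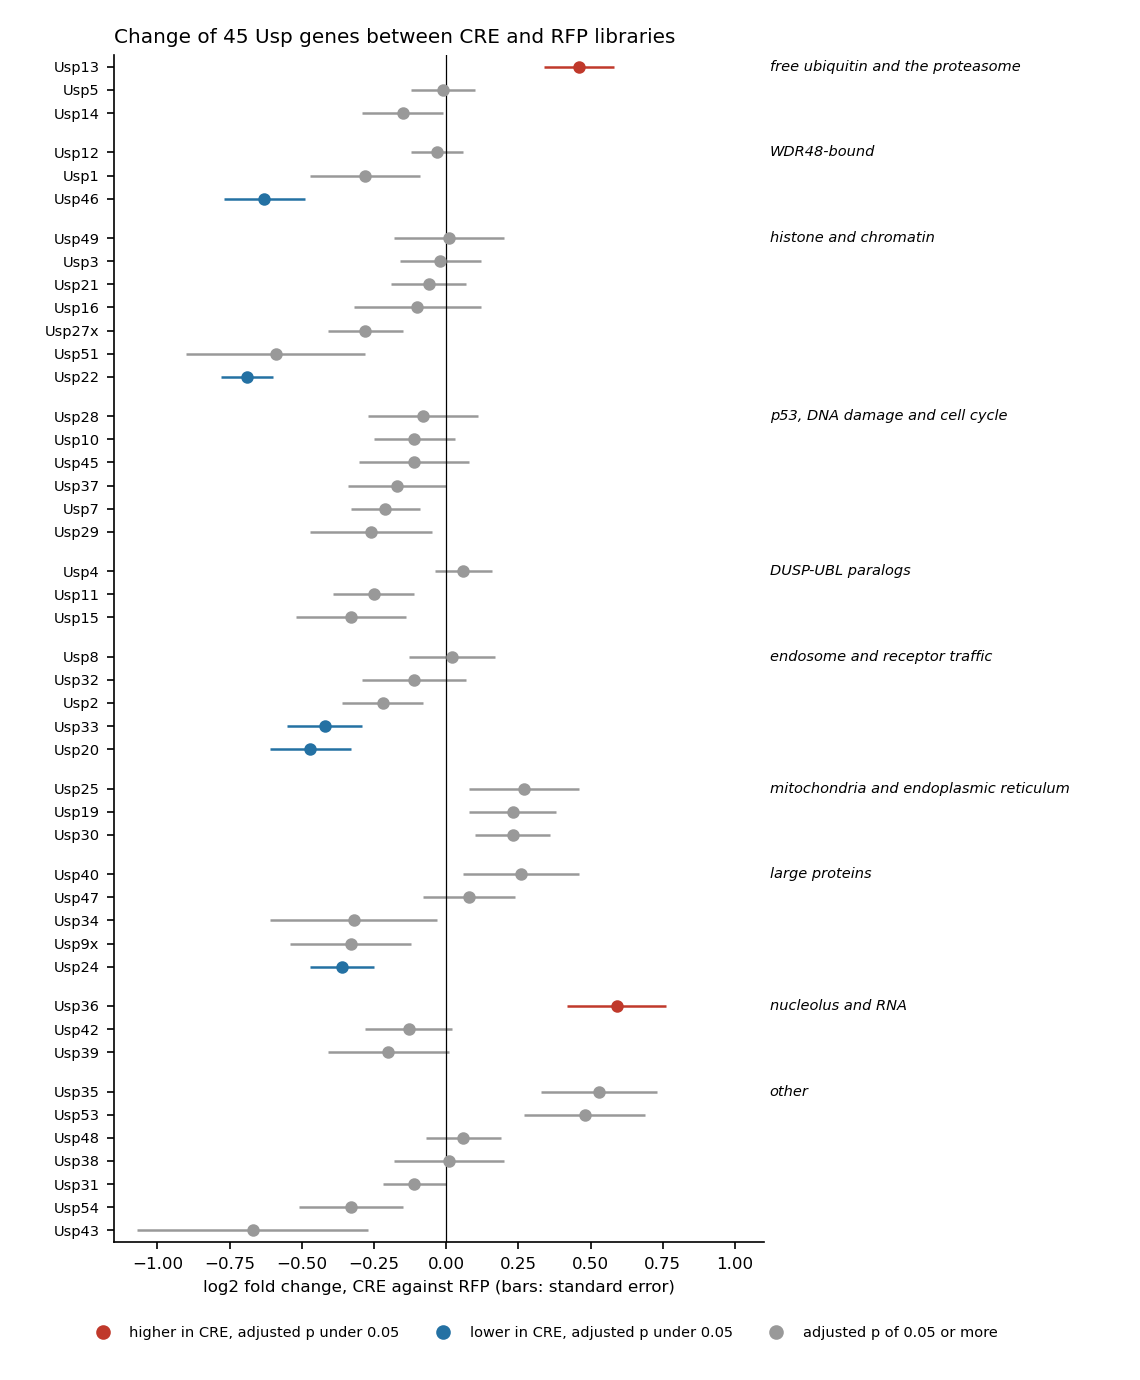
Log2 fold change of CRE against RFP libraries for each of the 45 Usp genes (points) with its standard error (bars), grouped by role, over 11 CRE and 10 RFP libraries. The 7 coloured genes had an adjusted p under 0.05, 5 of them lower (blue) and 2 higher (red) in CRE, and all points lie between -0.69 and 0.59.

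Levels of the members spanned a wide range. Per kilobase of exon, the median over RFP libraries was highest for *Usp22* (106.9 CPM per kb), followed by *Usp5* (32.7), which takes apart free ubiquitin chains, and *Usp11* (30.8), which acts in DNA repair. It was lowest for *Usp43* (0.811), *Usp40* (0.867) and *Usp53* (1.13). This order depends on the annotated exon length, 5062, 18164 and 15994 bases for these genes. Not divided by length, their RFP medians were 4.11, 15.7 and 18.1 CPM. The median member stood at 4.84 CPM per kb, 9 members were at 10 or more, 29 between 2 and 10, and 7 under 2. In CRE libraries the same 3 genes led in the same order, with *Usp22* at 65.7, *Usp5* at 30.1 and *Usp11* at 26.3 CPM per kb.

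**Figure D2:**
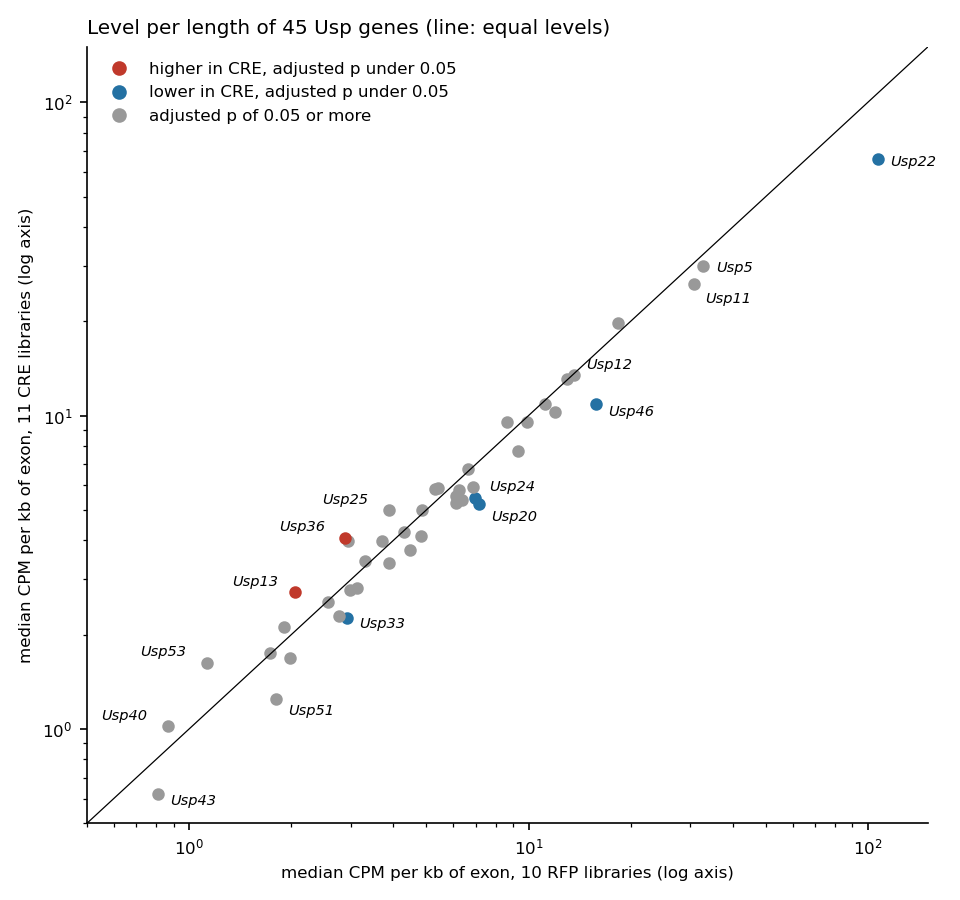
Median CPM per kilobase of exon over 10 RFP libraries (horizontal, log axis) and 11 CRE libraries (vertical, log axis) of the 45 Usp genes, with a line of equal levels and colours as for the fold changes. *Usp22*, at 106.9 in RFP and 65.7 in CRE libraries, lies apart from all other members and below the line.

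*Usp22* encodes the catalytic subunit of the deubiquitinating module of the SAGA complex, which removes ubiquitin from histone H2B at transcribed genes. It stood at 227.6 to 376.5 CPM in CRE libraries (median 324.6) and at 434.6 to 559.1 in RFP libraries (median 528.6). Every CRE library lay below every RFP library, and CRE1-3 was the lowest. *Usp22* was the only one of the 45 members whose groups did not overlap, as 4.72% of all genes tested did not. The means were 322.9 ± 42.8 (SD, n = 11) and 513.6 ± 45.2 (SD, n = 10) CPM. The log2 fold change was -0.69 with a standard error (SE) of 0.09 (adjusted p = 2.73e-06 by edgeR's quasi-likelihood test after Benjamini-Hochberg adjustment), a change of -38.0%. It was -0.83, -0.68 and -0.56 in cultures 1, 2 and 3. Over 19 libraries it was -0.65 (adjusted p = 3.72e-08 by the same test), again without overlap. The left-out CRE3-3 stood at 287.2 CPM, within the range of CRE libraries, and RFP3-2 at 376.7, below the other RFP libraries and close to the highest CRE library.

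*Usp22* made up a large part of the summed level of the family and of its difference between the groups. The summed level of the 45 members was 2221 to 3112 CPM in CRE libraries (median 2923) and 3038 to 3426 in RFP libraries (median 3301). Without CRE1-3 and RFP2-4 the ranges were 2811 to 3112 and 3120 to 3426, which do not overlap. *Usp22* made up a median of 11.1% of the sum in CRE and 16.3% in RFP libraries. The medians of the sum differed by 378 CPM and those of *Usp22* alone by 204 CPM. The sum of the other members was 1993 to 2798 CPM in CRE (median 2572) and 2519 to 2907 in RFP libraries (median 2755), with overlap.

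Other members of the histone and chromatin group had no call. *Usp27x* and *Usp51* encode close relatives of the *Usp22* protein that share its cofactors, and their coding sequences are 77.7% and 69.4% identical to that of *Usp22* over the aligned bases. *Usp27x* stood at 17.7 to 33.5 CPM in CRE and 23.1 to 41.3 in RFP libraries, with a log2 fold change of -0.28 (SE 0.13, adjusted p = 0.0996 by edgeR's test). It was called lower with GC trends removed, at -0.32 (adjusted p = 0.0329 by the same test). *Usp51* had a log2 fold change of -0.59 with an SE of 0.31 (adjusted p = 0.163 by edgeR's test), from 0.954 to 3.67 CPM in CRE and 1.14 to 7.09 in RFP libraries. *Usp3*, *Usp16*, *Usp21* and *Usp49*, which also act on ubiquitinated histones, had log2 fold changes of -0.10 to 0.01. An exon of another gene on the same strand, Gm20517, covers 45.8% of the exon bases of *Usp49*, whose count is therefore uncertain.

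*Usp46* and *Usp12* encode closely related enzymes that need the WD-repeat protein WDR48 for activity, and the Usp46 protein is known for acting on AMPA-type glutamate receptors. *Usp46* stood at 37.5 to 133.4 CPM in CRE libraries (median 116.4) and at 131.4 to 185.9 in RFP libraries (median 169.2). The groups overlapped only through RFP2-4, the lowest RFP library, while CRE1-3 was far below the other CRE libraries, whose lowest value was 86.0. The means were 108.3 ± 26.9 (SD, n = 11) and 165.6 ± 15.6 (SD, n = 10) CPM, with a log2 fold change of -0.63 (SE 0.14, adjusted p = 0.0014 by edgeR's quasi-likelihood test after Benjamini-Hochberg adjustment). Within cultures it was -0.69, -0.53 and -0.71. Over 19 libraries the groups no longer overlapped, at 86.0 to 133.4 against 154.5 to 185.9 CPM, as was the case for 2 of 45 members and 7.87% of all genes, and the log2 fold change was -0.57 (adjusted p = 4.80e-07 by the same test). *Usp12*, with a coding sequence 77.2% identical to that of *Usp46*, had a log2 fold change of -0.03 (SE 0.09, adjusted p = 0.855 by edgeR's test), at 78.1 to 108.1 CPM in CRE and 68.2 to 111.6 in RFP libraries. The difference between these paralogs was not tested. The third WDR48-bound member, *Usp1*, which acts on the Fanconi anaemia protein FANCD2 and on PCNA, had a log2 fold change of -0.28 (adjusted p = 0.299 by edgeR's test), and 12.5% of its 50-base stretches also occur in another gene.

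**Figure D3:**
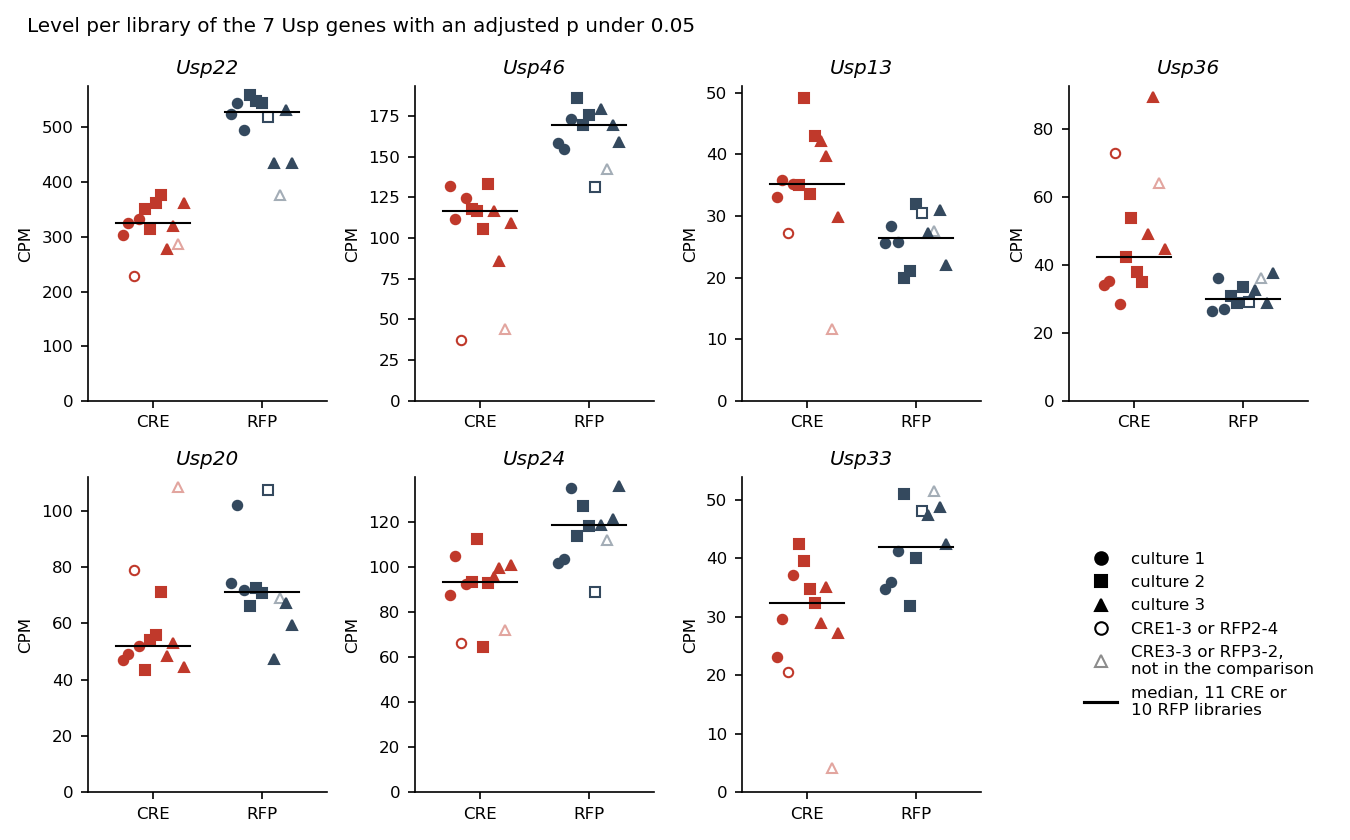
CPM (vertical, from 0) of the 7 Usp genes with an adjusted p under 0.05 in each library, with CRE in red, RFP in dark grey, 1 symbol shape per culture, open symbols for the libraries that stood apart and a black line at the median of the 11 CRE or 10 RFP libraries. The *Usp22* groups are separate (227.6 to 376.5 against 434.6 to 559.1 CPM), those of *Usp46* touch at RFP2-4, and those of the other 5 genes overlap.

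Of the enzymes of endosomes and receptor traffic, *Usp20* and *Usp33* were both lower in CRE libraries. These paralogs, with coding sequences 66.7% identical, recycle receptors such as the beta-2 adrenergic receptor and bind the von Hippel-Lindau protein. *Usp20* stood at 43.3 to 78.9 CPM in CRE libraries (median 52.0) and at 47.5 to 107.2 in RFP libraries (median 71.3). The groups overlapped widely, only 3 CRE libraries lay below all RFP libraries, and the libraries CRE1-3 and RFP2-4 were each the highest of their group. The means were 54.3 ± 11.1 (SD, n = 11) and 73.9 ± 18.0 (SD, n = 10) CPM, and the log2 fold change was -0.47 (SE 0.14, adjusted p = 0.0112 by edgeR's quasi-likelihood test after Benjamini-Hochberg adjustment). With all 23 libraries, of which CRE3-3 held 108.5 CPM, the difference was -0.33 and no longer past the threshold (adjusted p = 0.109 by edgeR's test), and over 19 libraries it was -0.46 (adjusted p = 0.0017 by the same test).

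*Usp33* stood at 20.6 to 42.4 CPM in CRE libraries (median 32.3) and at 31.8 to 51.0 in RFP libraries (median 41.8). Of the CRE libraries 5 lay below all RFP libraries, and 4 RFP libraries lay above all CRE libraries. The means were 31.9 ± 6.74 (SD, n = 11) and 42.1 ± 6.56 (SD, n = 10) CPM, with a log2 fold change of -0.42 (SE 0.13, adjusted p = 0.0157 by edgeR's quasi-likelihood test after Benjamini-Hochberg adjustment) and of -0.35 over 19 libraries (adjusted p = 0.0214 by the same test). Once the GC trends were taken out of all libraries it was -0.30 and no longer past the threshold (adjusted p = 0.152 by edgeR's test). Several genes on the opposite strand overlap the exons of *Usp33*, *Miga1* over 472 bases, and a 270-base overlap exists between *Usp20* and BC005624. The strand setting of the counting is not given in the sources used here. *Usp2*, *Usp8* and *Usp32*, the other members of this group, had log2 fold changes of -0.22, 0.02 and -0.11 without a call.

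*Usp24* encodes one of the very large family members and was lower in CRE libraries. It stood at 64.5 to 112.4 CPM in CRE libraries (median 93.5) and at 89.1 to 136.2 in RFP libraries (median 118.6). RFP2-4 was the lowest RFP library, and 7 of the 10 RFP libraries lay above every CRE library. The means were 91.9 ± 14.7 (SD, n = 11) and 116.5 ± 14.9 (SD, n = 10) CPM, and the log2 fold change was -0.36 (SE 0.11, adjusted p = 0.0114 by edgeR's quasi-likelihood test after Benjamini-Hochberg adjustment), alike in the 3 cultures at -0.39, -0.35 and -0.36. Over 19 libraries it was again -0.36 (adjusted p = 0.00149 by the same test). The other large members were *Usp9x* (-0.33), an X-linked enzyme of neuronal polarity, *Usp34* (-0.32), which acts on axin in Wnt signalling, *Usp40* (0.26) and *Usp47* (0.08), a DNA repair enzyme, and none of these 4 was called. *Usp9x* and *Usp34* were far lower in CRE1-3 than in any other CRE library of the comparison, at 15.1 and 4.77 CPM where the others held at least 119.6 and 81.7, and over 19 libraries both were called lower, at log2 fold changes of -0.27 (adjusted p = 0.00487 by edgeR's test) and -0.28 (adjusted p = 0.041).

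*Usp13* was higher in CRE libraries, while its paralog *Usp5* had a value near 0. The Usp13 protein is known for acting in autophagy and in degradation at the endoplasmic reticulum. It stood at 27.2 to 49.2 CPM in CRE libraries (median 35.2) and at 20.0 to 31.9 in RFP libraries (median 26.5). Of the CRE libraries 9 lay above every RFP library. The means were 36.7 ± 6.32 (SD, n = 11) and 26.4 ± 4.21 (SD, n = 10) CPM, with a log2 fold change of 0.46 (SE 0.12, adjusted p = 0.00535 by edgeR's quasi-likelihood test after Benjamini-Hochberg adjustment) and of 0.28, 0.59 and 0.47 within cultures. With CRE3-3 (11.6 CPM) and RFP3-2 included it was 0.40 (adjusted p = 0.0534 by edgeR's test), and over 19 libraries 0.52 (adjusted p = 0.000753). *Usp5*, whose coding sequence is 68.6% identical, was at 133.8 to 254.6 CPM in CRE and 133.6 to 201.7 in RFP libraries, with a log2 fold change of -0.01 (adjusted p = 0.952 by edgeR's test). *Usp14*, which trims ubiquitin chains on the proteasome, had a log2 fold change of -0.15 (adjusted p = 0.462 by the same test).

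*Usp36* encodes a nucleolar enzyme that keeps proteins of ribosome production stable. It stood at 28.6 to 89.6 CPM in CRE libraries (median 42.5) and at 26.6 to 37.6 in RFP libraries (median 30.1). The CRE libraries were spread widely, with CRE3-2 (89.6) and CRE1-3 (73.0) far above the others, and 7 of 11 lay above every RFP library. The means were 47.6 ± 18.5 (SD, n = 11) and 31.2 ± 3.80 (SD, n = 10) CPM, and the log2 fold change was 0.59 (SE 0.17, adjusted p = 0.00879 by edgeR's quasi-likelihood test after Benjamini-Hochberg adjustment), with 0.48, 0.42 and 0.88 in the 3 cultures. Over 19 libraries it was 0.50 (adjusted p = 0.013 by the same test). The closest relative *Usp42*, with 64.2% identical coding bases, had a log2 fold change of -0.13 (adjusted p = 0.556 by edgeR's test), and the splicing factor *Usp39* one of -0.20 (adjusted p = 0.526).

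No call was made in 3 further groups. The group of p53, DNA damage and the cell cycle held 6 members, *Usp7*, *Usp10*, *Usp28*, *Usp29*, *Usp37* and *Usp45*. All 6 had negative log2 fold changes, from -0.26 to -0.08. Among them 0 had an adjusted p under 0.05 by edgeR, DESeq2 or limma-voom, and 0 an unadjusted p under 0.05 by edgeR. Not in this group were the DNA repair enzymes *Usp11* (-0.25) and *Usp47* (0.08), and *Usp1* (-0.28), which acts on FANCD2 and PCNA. Nor was *Usp35* (0.53), which acts in mitosis. Each gene was placed in 1 group. Called members of other groups, *Usp24* (-0.36) and *Usp20* (-0.47) among them, may act in these processes too. The absence of a call thus holds for the 6 listed genes only. The 3 members grouped under mitochondria and the endoplasmic reticulum, *Usp30*, *Usp19* and *Usp25*, had positive values of 0.23 to 0.27. They had 0 calls by the same 3 tools and 0 unadjusted p-values under 0.05 by edgeR. *Usp13* and *Usp35*, described here with these organelles too, were in other groups. *Usp4*, *Usp11* and *Usp15*, paralogs that share a DUSP and a ubiquitin-like domain, had values of 0.06, -0.25 and -0.33, again with 0 calls by the 3 tools and 0 unadjusted p-values under 0.05 by edgeR. *Usp15* stood at 14.8 CPM in CRE1-3 and at 79.8 to 117.1 in the other CRE libraries, against 81.4 to 124.8 in RFP libraries, and over 19 libraries it was called lower at -0.25 (adjusted p = 0.0151 by edgeR's test). Of the 7 members without a group, 0 were called by edgeR or limma-voom, 1 (*Usp35*) by DESeq2, and 2 had an unadjusted p under 0.05 by edgeR.

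Over the 38 members without a call, log2 fold changes ran from -0.67 (*Usp43*, SE 0.40) to 0.53 (*Usp35*, SE 0.20), and 26 were negative. Standard errors of 0.09 to 0.40 bound how small a change could be seen. *Usp35*, which acts on mitochondria and in mitosis, was nearest to the threshold, with 11.3 to 45.3 CPM in CRE and 12.4 to 22.9 in RFP libraries (adjusted p = 0.0519 by edgeR's test). It was called in 7 of 15 alternative settings and over 19 libraries had a log2 fold change of 0.46 (adjusted p = 0.0788 by the same test). *Usp53*, a tight junction gene needed for hearing, had 0.48 (adjusted p = 0.0887 by edgeR's test) and over 19 libraries 0.53 (adjusted p = 0.0101). *Usp54*, its paralog, had the opposite sign with -0.33 (adjusted p = 0.173). *Usp25* had 0.27 (adjusted p = 0.301 by edgeR's test) and was called in 1 setting. Of the 38 members, 30 were called in no setting.

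Over the 19 libraries 11 members were called (38.1% of all genes), 3 of them higher (19.4%) and 8 lower (18.7%). All 7 genes named above were among them, and *Usp9x*, *Usp15*, *Usp34* and *Usp53* were added. Each of the 7 had the same sign in the 3 cultures, as had 21 of all 45 members. With the reads of each culture summed, so that 3 CRE sums met 3 RFP sums, the same 7 were called. *Usp22* and *Usp46* were called in all 15 alternative settings. The number of members called was 8 with DESeq2 (33% of all genes), 7 with limma-voom (31.6%), 6 over all 23 libraries (28.2%), 7 with the sums per culture (22.8%) and 11 with GC trends removed (37%). Without CRE1-3 and CRE3-3, the libraries that the study's methods name as removed, it was 12, of which 5 were higher (20.2% of all genes) and 7 lower (17.8%). Without culture 1 the number was 8 (25.9% of all genes) and without culture 3 it was 5 (22.8%). In the latter *Usp54* was added at -0.64 (adjusted p = 0.0203 by edgeR's test), while *Usp24* (-0.38), *Usp33* (-0.36) and *Usp36* (0.45) were not called. Without culture 2 the 3 genes called were all lower, and *Usp13* (0.38), *Usp20* (-0.41), *Usp24* (-0.37) and *Usp36* (0.68) were not called although their log2 fold changes kept their sign.

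**Figure D4:**
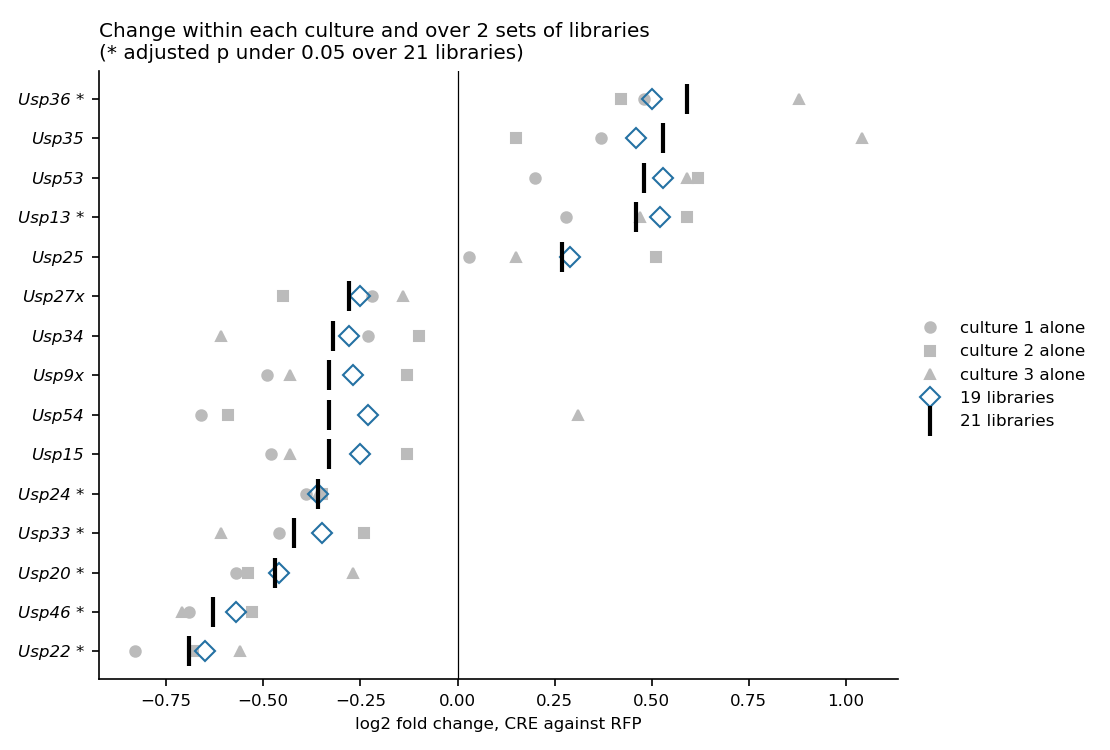
Log2 fold change of CRE against RFP (horizontal) of the 15 Usp genes called in the comparison of 21 libraries (marked with an asterisk) or in any alternative setting, with black bars for 21 libraries, blue diamonds for 19 libraries and grey symbols for each culture alone. The 7 marked genes lie on 1 side of 0 in every culture, while *Usp54* was at -0.66 and -0.59 in cultures 1 and 2 and at 0.31 in culture 3.

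The members varied more among CRE than among RFP libraries, and less so once CRE1-3 was left out. The median coefficient of variation of the 45 members was 28.7% over 11 CRE and 16.8% over 10 RFP libraries, and 16% and 13.5% without CRE1-3 and RFP2-4. CRE1-3 was the lowest of the 11 CRE libraries for 28 members and the highest for 8. The median member was at -0.91 on the log2 scale in CRE1-3 relative to the median of those other libraries of its group that did not stand apart, at -0.80 in CRE3-3 and at -0.11 to 0.14 in the other 21 libraries. Across the 45 members, the log2 fold change was set against the GC content of the longest transcript. Spearman's rho was 0.15 over 21 libraries, 0.05 over 19 and 0.00 with GC trends removed. These points share the same libraries.

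*Usp18*, which encodes the protease for the ubiquitin-like ISG15 and a brake on interferon signalling at the receptor chain IFNAR2, fell just outside the rule, with 10 or more reads in 9 of the 23 libraries. It held 5 to 51 reads in CRE libraries (median 25, 288 in all) and 0 to 8 in RFP libraries (median 0.5, 19 in all), and 5 of the 10 RFP libraries had 0 reads. Scaled to library size this was 0.379 to 3.73 CPM (median 3.15) in CRE and 0 to 0.476 in RFP libraries, so that the groups overlapped at CRE1-1 (0.379), the lowest CRE library, with RFP1-3 (0.426) and RFP2-3 (0.476) above it. CRE3-3 and RFP3-2 held 0 reads each. No test is given for this gene. The members with the fewest libraries at 10 or more reads were *Usp43*, with 21, and 8 others with 22, well inside the rule. *Usp43* held 10 to 44 reads in CRE and 7 to 107 in RFP libraries. The other genes outside held 0 to 3 reads per library of the comparison (*Usp26*), 0 to 10 (*Usp44*), 0 to 12 (*Usp50*) and 0 in all 23 libraries (*Usp9y*), where a count of 0 allows up to 3 reads, or 0.175 to 1.94 CPM by depth of library, counting error only.

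**Figure D5:**
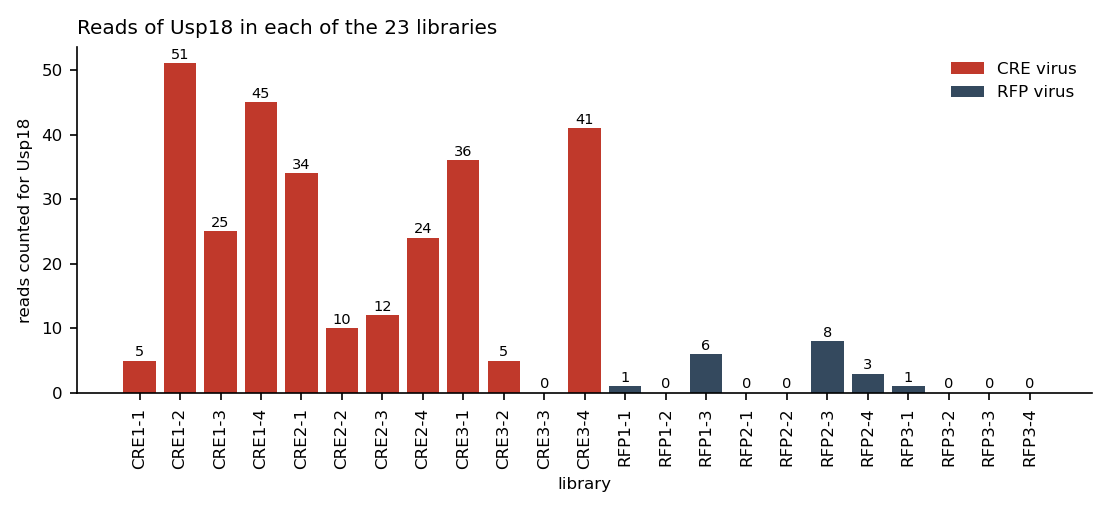
Reads counted for *Usp18* (vertical, from 0) in each of the 23 libraries (horizontal), with CRE in red and RFP in dark grey and the number above each bar. The 11 CRE libraries of the comparison held 5 to 51 reads and the RFP libraries 0 to 8, and CRE3-3 held 0.

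Genes around the family were called in both directions, and their number was not tested against all genes. Of 27 tested genes for partners and substrates of Usp proteins, 7 were called (30.2% of all genes). In CRE libraries 6 were higher (16.4% of all genes) and 1 lower (13.8%). The median log2 fold change of the 27 genes was 0.04. *Trp53*, the gene of p53, which Usp7 and Usp10 deubiquitinate, was at 34.7 to 60.2 CPM in CRE and 17.4 to 32.8 in RFP libraries (log2 fold change 0.96, adjusted p = 5.18e-06 by edgeR's quasi-likelihood test after Benjamini-Hochberg adjustment). *Mdm2*, the ubiquitin ligase of p53, had a log2 fold change of 0.72 (adjusted p = 0.000213 by the same test), and *Pink1*, a kinase of mitochondrial quality control that Usp30 opposes, one of 0.92 (adjusted p = 0.00015). *Atxn7*, which anchors the deubiquitinating module in SAGA, had a log2 fold change of 0.81 (adjusted p = 0.000171 by edgeR's test), in the direction opposite to that of *Usp22*. Other listed SAGA genes were not called and went both ways, *Atxn7l3* (-0.22), *Eny2* (-0.10), *Atxn7l1* (-0.13) and *Atxn7l2* (0.32). Over 19 libraries *Atxn7l3* was called lower, at -0.28 (adjusted p = 0.0033 by edgeR's test). *Ifnar2* had a log2 fold change of 1.05 over the 21 libraries (adjusted p = 0.00123 by edgeR's test). It stood at 1.25 to 7.67 CPM in RFP and 7.14 to 17.0 in CRE libraries. Exons of Gm21970, on the same strand, cover 20.0% of the exon bases of *Ifnar2*. Those of *Ddost*, on the opposite strand, cover 37.4% of those of *Pink1*, so both counts are uncertain. The lower gene, *Atxn7l3b*, named after its value was seen, encodes a relative of another SAGA subunit and had -0.44 (adjusted p = 0.0283 by edgeR's test), at 113.7 (CRE1-3) to 450.4 CPM in CRE and 462.4 to 555.8 in RFP libraries.

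Of 36 tested genes in a list of other deubiquitinases, 5 were called (30.2% of all genes). Of these 2 were higher (16.4%) and 3 lower (13.8%), and the median log2 fold change of the 36 was 0.00. The list also includes *Cyld*, *Uspl1* and *Pan2*, and was not limited to genes of other families. *Otub2* (-0.69, adjusted p = 0.000122 by edgeR's quasi-likelihood test after Benjamini-Hochberg adjustment) and *Otud5* (-0.28, adjusted p = 0.0259) of the OTU family and *Mindy3* (-0.63, adjusted p = 0.00195) were lower in CRE libraries. *Otud1* (0.66, adjusted p = 0.012 by the same test) and *Mindy1* (0.59, adjusted p = 0.00162) were higher. *Mindy3* was at -0.20 and no longer past the threshold with GC trends removed (adjusted p = 0.679 by edgeR's test), and *Otud5* was at -0.16 over all 23 libraries (adjusted p = 0.353). *Otud1* was called in 11 and *Otud5* in 10 of 15 alternative settings. Over 19 libraries 14 of the 36 were called (38.1% of all genes). Of 6 genes for ubiquitin and its activating enzymes, 0 were called by edgeR, 1 had an unadjusted p under 0.05, DESeq2 called 1, limma-voom called 0, and log2 fold changes lay between -0.22 and 0.26.

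Markers of several cell types were called between the groups, at an adjusted p under 0.05 by edgeR's test. Of all genes tested, 13.8% were called lower and 16.4% higher. The marker counts were not tested against these shares. Of 8 neuron markers 6 were lower in CRE libraries and 0 higher, with a summed level of 2756 to 5848 CPM in CRE and 6117 to 7338 in RFP libraries. Of 7 glutamatergic markers 4 were lower and 1 higher (766.6 to 1663 against 2058 to 4385 CPM), and of 8 GABA neuron markers 1 was lower and 2 higher (890.8 to 1842 against 1102 to 2317). All 6 markers of dividing cells were lower (1.91 to 153.6 against 141.6 to 251.9 CPM), as were 4 of 8 of astrocytes, with 1 higher (1559 to 5126 against 3612 to 7845), and 6 of 9 of the oligodendrocyte lineage (425.0 to 1910 against 649.0 to 1880). Of 6 mesenchymal markers 1 was higher (12.8 to 234.9 against 15.3 to 111.2 CPM). The 1 endothelial marker tested was lower and 1 of 2 microglia markers tested was higher. Endothelial markers summed to 1.09 to 10.1 against 2.17 to 9.57 CPM with *Cldn5* and *Tek* at a median of 0, and microglia markers to 0.256 to 7.70 against 1.09 to 6.56 with *Cx3cr1*, *Aif1*, *C1qa*, *C1qb* and *Ctss* at 0. The part of these cell types in the changes of *Usp22*, *Usp46* and the other members was not tested.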

How the data were processed

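RNA of hippocampal cultures was measured as reads per gene in 23 libraries, 12 with CRE and 11 with RFP virus. The authors made libraries with a stranded mRNA kit and deposited unnormalized gene counts, one table per library. Per the submitters' processing notes these came from bcl2fastq 2.20.0.422, STAR 2.7.8a and featureCounts 1.5.0-p1 on GRCm39, with Ensembl release 110 per the methods. The strand setting and the treatment of multi-mapping reads are not given in the sources used here, so counts of overlapping genes are uncertain. GENCODE M39 named 56323 of 56941 genes (99.95% of counts).

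The family, its role groups, the other gene lists and the tests were chosen with earlier results of these data known. CRE and RFP libraries were compared over 21 libraries with edgeR 4.0.16 in R 4.3.3 (filterByExpr, TMM, robust quasi-likelihood fit, condition as only term), with Benjamini-Hochberg adjustment over 14488 genes and calls at an adjusted p under 0.05. The methods name CRE1-3 and CRE3-3 as removed, while the study's count table lacks CRE3-3 and RFP3-2. CPM rests on TMM factors from 14382 genes, those past the filter when all 23 libraries are taken. CPM per kb divides by the union of a gene's exons. Values by library are given for called members. Members without a call are named where a close relative or an alternative setting was called, or for the 3 highest and 3 lowest levels. Further ones are named for their group's range, and from other lists the called genes with the 5 smallest p-values. *Atxn7l3*, *Eny2*, *Atxn7l1* and *Atxn7l2*, which had no call, were added beside *Atxn7*. The 15 alternatives cover the libraries, DESeq2 1.42.0, limma-voom 3.58.1, scaling, filters, culture and library number as blocks, sums per culture, removal of GC trends and cultures left out in turn. The procedure was tested on simulated data. Shared 50-base stretches, overlaps and Cys boxes were computed from GENCODE M39 with Python 3.11.15, numpy 2.4.6, pandas 2.3.3 and Biopython 1.88, rank correlations with scipy 1.17.1 and figures with matplotlib 3.10.9.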

Additional observations from a re-analysis of the deposited data

Results flagged for a closer look

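*Usp14*, a deubiquitinase of the proteasome, stood at 58.1 CPM in RFP2-4 and at 81.9 to 104.2 CPM in the other 9 RFP libraries of the comparison. This gap, relative to the range of the group, was past the 95% critical value of Dixon's test for 10 samples. It was the only such case among the 58 genes examined in the RFP libraries, where chance flags about 1 in 20 groups. CRE libraries were not examined in this way. Among them CRE1-3 was the lowest for 28 members and the highest for 8. *Usp14* has the lowest GC content of the 45 members (39.3% of the bases of its longest transcript). RFP2-4 is one of the libraries whose gene levels rose with GC content. The part of GC content in this value was not tested.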

How the results depend on the processing

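The 7 called members numbered 12 (5 higher) without CRE1-3 and CRE3-3, the libraries that the methods name, 11 (8 lower) over 19 libraries, and 11 (4 higher) with GC trends removed. With 1 culture left out the count lay between 3 and 8, with 0 to 3 higher and 3 to 5 lower. The 5 called genes of the list of other deubiquitinases numbered 13 without CRE1-3 and CRE3-3 and 14 over 19 libraries. They numbered 9 with DESeq2, 8 with limma-voom, 9 with sums per culture, 13 with GC trends removed and 4 to 10 with a culture left out. The 7 called partners numbered 12, 11 and 13 without CRE1-3 and CRE3-3, over 19 libraries and with GC trends removed, and 6 to 8 with a culture left out. Of all genes, 30.2% were called over the 21 libraries, 37.9% without CRE1-3 and CRE3-3, 38.1% over 19 libraries and 37% with GC trends removed. The share was 33% with DESeq2, 31.6% with limma-voom, 22.8% with sums per culture and 14.3 to 25.9% with a culture left out. The cause of these shifts was not tested. Of the 58 genes followed one by one, 51 to 57 kept their direction and side of the threshold in each alternative, and no called gene reversed. With culture as the replicate block 7 members were called (29.5% of all genes), and with culture and library number as the replicate block 6 (21.9%), of which 1 was higher, without *Usp36*. Whether the numbers pair the libraries is not stated in the labels, and little sign of pairing was seen. Deviations from the group means correlated at 0.02, 0.02 and 0.14 between CRE and RFP libraries of a culture. Within numbered pairs they correlated at -0.06 to 0.11, and low values of this kind cannot exclude pairing. *Usp18*, *Usp43* and *Usp51* rest on few reads per library.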
